A study of Mus musculus with 9 samples.

Results

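Transcripts of 10 antioxidant enzyme genes were followed in mouse liver: the superoxide dismutases Sod1, Sod2 and Sod3, the catalase gene Cat, the glutathione peroxidases Gpx1, Gpx3 and Gpx4, the glutathione reductase gene Gsr, and Gclc and Gclm, which encode the subunits of glutamate-cysteine ligase. They were taken by gene name from a table of 56748 genes, with earlier results of these data known, and all 10 had counts. Bulk RNA sequencing had been done on liver of C57BL/6J mice (C57BL/6 on the sample labels), as 9 samples in groups of 3. Each sample is taken below as a separate mouse, which the sources do not state beyond the sample labels. The Control mice received sterile water by mouth. The DSS mice went through 3 cycles of dextran sulfate sodium, a colon irritant that produces colitis, at 1.8% in the drinking water, and received the same water by mouth as vehicle. The Indirubin mice went through the same cycles and received 1 g/kg/day of indirubin, the red bis-indole pigment of the remedy indigo naturalis and a ligand of the aryl hydrocarbon receptor. The design text speaks of DSS for the mice as a whole while the Control labels give water alone, so the state of that group is not certain. Indirubin was given only on top of DSS, so its effect in mice without DSS is outside these comparisons. The labels give neither age nor sex, and the study gives an age only for its mice as purchased.

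Superoxide dismutases turn superoxide into hydrogen peroxide and oxygen. Hydrogen peroxide is then removed either by catalase, which is most abundant in liver peroxisomes, or by glutathione peroxidases, which spend reduced glutathione. Glutathione reductase regenerates that glutathione with NADPH, and glutamate-cysteine ligase makes the first and rate-limiting bond of new glutathione, so the 10 genes cover a chain from superoxide to the supply of its last reductant. The liver is the main source of glutathione for the body.

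The libraries held between 6514863 and 7944684 counts, of which 71.6 to 91.3% came from the mitochondrial genome, leaving 569044 to 2132208 counts over nuclear genes. All levels below are normalized CPM, a gene's counts relative to the size of its library after TMM scaling over the 9 libraries, which assumes that most genes are equal between libraries. Defining hepatocyte markers were present in every group: all 10 were over 3 counts in at least 1 library, and their summed level was 11798 to 19493 normalized CPM in Control, 11082 to 25680 in DSS and 11047 to 15553 in Indirubin mice. The sum hides members that moved apart. Hpx had 1936 to 4552 counts in Control and 49762 and 63413 in Indirubin-2 and Indirubin-3. Ttr had 2539 to 6304 in Control and 1999 and 2308 there, so the sum does not show a steady hepatocyte share. The Indirubin-2 and Indirubin-3 libraries stood apart from the rest. The summed level of 10 pancreatic acinar genes was 1431 and 1379 normalized CPM there, against 3.49 in Indirubin-1, 1.41 to 17.0 in Control and 0.00 to 0.548 in DSS mice. The sources name these samples as liver, and the part of the acinar RNA in the values below was not tested. These 2 libraries also had a lower mitochondrial share, 71.6 and 77.2% against 89.5% in Indirubin-1, and more nuclear counts, 1910420 and 1771035 against 701804. Of the other libraries DSS-3 was similar, at 72.4% and 2132208 nuclear counts, and the part of these differences in the values below was not tested. Where the Indirubin libraries split in this way, fold changes are given with and without Indirubin-1. Each library was left out in turn, but Indirubin-1 is singled out because of this split. The 2 libraries then left hold the acinar RNA, so p-values without Indirubin-1 are a description and not independent evidence.

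The 3 glutathione peroxidases measured here carry selenocysteine in the active site, encoded by an in-frame TGA that elsewhere would end the protein. It is shown because it is the feature that the 3 share and that no other gene of the 10 has. Each window spans 45 bases of coding sequence on the plus strand (GENCODE M21, GRCm38), with the TGA in capitals at chr9:108339451-108339453 for Gpx1, chr11:54907256-54907258 for Gpx3 and chr10:80054737-80054739 for Gpx4.
Gpx1: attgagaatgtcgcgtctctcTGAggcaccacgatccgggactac
Gpx3: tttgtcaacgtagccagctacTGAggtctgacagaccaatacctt
Gpx4: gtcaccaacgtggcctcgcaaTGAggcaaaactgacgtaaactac
The TGA was codon 47 of Gpx1 and codon 73 of Gpx3, counted from the start codon. In Gpx4 the same TGA was codon 129, 73 or 33, depending on which of 3 annotated transcripts is read.

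Per kilobase of the deposited gene length, Cat was the most abundant of the 10 transcripts and Sod2 the least, at 55.5 ± 24.6 and 2.11 ± 1.23 normalized CPM per kilobase (SD over 9 libraries). The deposited length is a single value per gene, such as 1441 bases for Gpx1, 3970 for Sod1 and 10008 for Sod2. The length of the transcripts present in liver was not measured, and the order could differ with it. Sod1 followed Cat at 25.4 ± 4.61, with Gpx1 at 19.7 ± 8.64 and Gpx4 at 17.3 ± 4.18. Gpx3 (7.81 ± 10.6), Gclc (5.15 ± 3.07), Sod3 (4.88 ± 2.25), Gsr (3.68 ± 2.17) and Gclm (3.58 ± 0.652) came next in that order. Within the Indirubin mice the lowest mean was that of Gclc, at 2.58 ± 2.21, below Sod2 at 3.15 ± 1.79. No neighbours in this order were separated in all 9 libraries. Cat exceeded Sod1, Gpx4 exceeded Gpx3 and Gclm exceeded Sod2 in 8 of 9 libraries each, and Sod1 exceeded Gpx1 in 7. Gclc exceeded Sod3 in 7, while Gpx1 exceeded Gpx4 and Sod3 exceeded Gsr in 6. Gpx3 exceeded Gclc in 3 and Gsr exceeded Gclm in 4, so the mean ranks of these last pairs went against most libraries. Gpx3 owed its place to Indirubin-2 and Indirubin-3, since its median over the libraries was 3.54 normalized CPM per kilobase and its highest value 33.1. Sod1 and Gclm varied least relative to their means, each with an SD of 18.2% of the mean over the libraries, and Gpx3 most, at 135%.

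**Figure D1:**
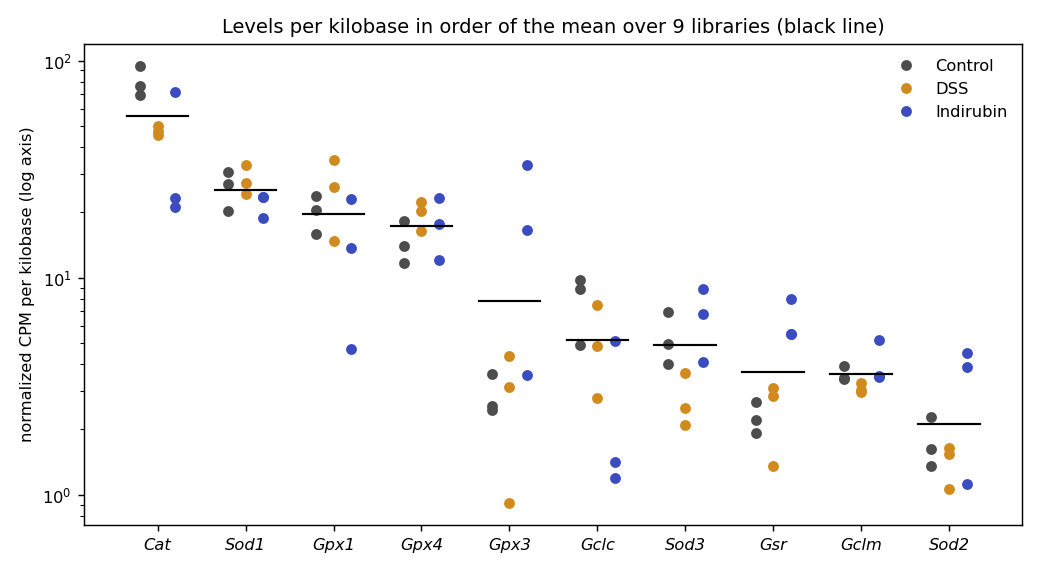
Normalized CPM per kilobase of gene length (vertical axis, log scale) of the 10 genes, 1 point per library coloured by group, with the mean over 9 libraries as a black line. Gpx3 spans 0.915 to 33.1 and Gclm 2.99 to 5.16, and the 2 lowest Cat values (21.1 is the lowest) are Indirubin libraries.

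No gene of the 10 passed an adjusted p of 0.05 in any of the 3 comparisons by the quasi-likelihood test of edgeR, with Benjamini-Hochberg adjusted values over all genes tested, although all 10 passed the filter on low counts each time. In DSS against Control mice, 2 of 10 had an unadjusted p under 0.05, both lower (Cat and Sod3), where 7.52% of the 7482 genes tested did so, and 0.708% passed the adjusted threshold. In Indirubin against Control mice, 3 of 10 had an unadjusted p under 0.05 (Gpx3 and Gsr higher, Gclc lower), against 13.8% of 8059 genes, with 0.236% past the adjusted threshold. In Indirubin against DSS mice it was 4 of 10, all higher (Sod2, Sod3, Gpx3 and Gsr), against 7.68% of 9117 genes, with 0% past the adjusted threshold. DESeq2's Wald test called 0, 2 and 1 of the 10 genes at an adjusted p under 0.05 in the same order of comparisons, and 1.91%, 3.92% and 0.877% of all genes. The calls were Gpx3 (adjusted p = 0.00675) and Gsr (adjusted p = 0.0410) against Control, and Gpx3 (adjusted p = 0.0423) against DSS mice. Without Indirubin-1, edgeR called Cat, Gpx3 and Gclc against Control and Gpx3 against DSS mice, while 4.78% and 1.24% of all genes were called. Without Indirubin-2 or Indirubin-3 it called none of the 10 in either comparison. The unadjusted count in DSS against Control mice was 0 without Control-1 or DSS-2, where 4.88% and 6.81% of all genes were counted, and 3 without DSS-1 (7.71% of all genes). In Indirubin against DSS mice it was 1 without DSS-2 (8.44% of all genes).

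The 3 values of one group lay entirely above or below those of the other for 3, 1 and 4 of the 10 genes in these comparisons, where 15.6%, 21.6% and 16.4% of all genes tested did so. The count of 1 in 10 for Indirubin against Control mice was below the share over all genes, and the other counts were above it. A permutation test over 3 against 3 libraries cannot go below an exact two-sided p of 0.10, so none is given per gene. The median log2 fold change of the 10 genes was -0.10 in DSS against Control, 0.25 in Indirubin against Control and 0.12 in Indirubin against DSS mice, beside 0.01, 0.13 and 0.15 over all genes tested. Which genes were separated depended on the scaling: relative to nuclear reads alone, Gpx3 was separated in both comparisons of the Indirubin mice, Gpx4 was higher in DSS than in Control mice, and Gclm and Sod1 were no longer separated in any. The counts were then 3, 2 and 3 of the 10 genes, beside 15.0%, 21.8% and 16.3% of all genes. With library size alone they were 2, 3 and 1, beside 22.2%, 32.1% and 12.4%. The DSS mice enter 2 of the comparisons, and so do the Control mice and the Indirubin mice, so the comparisons are not independent of each other.

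**Figure D2:**
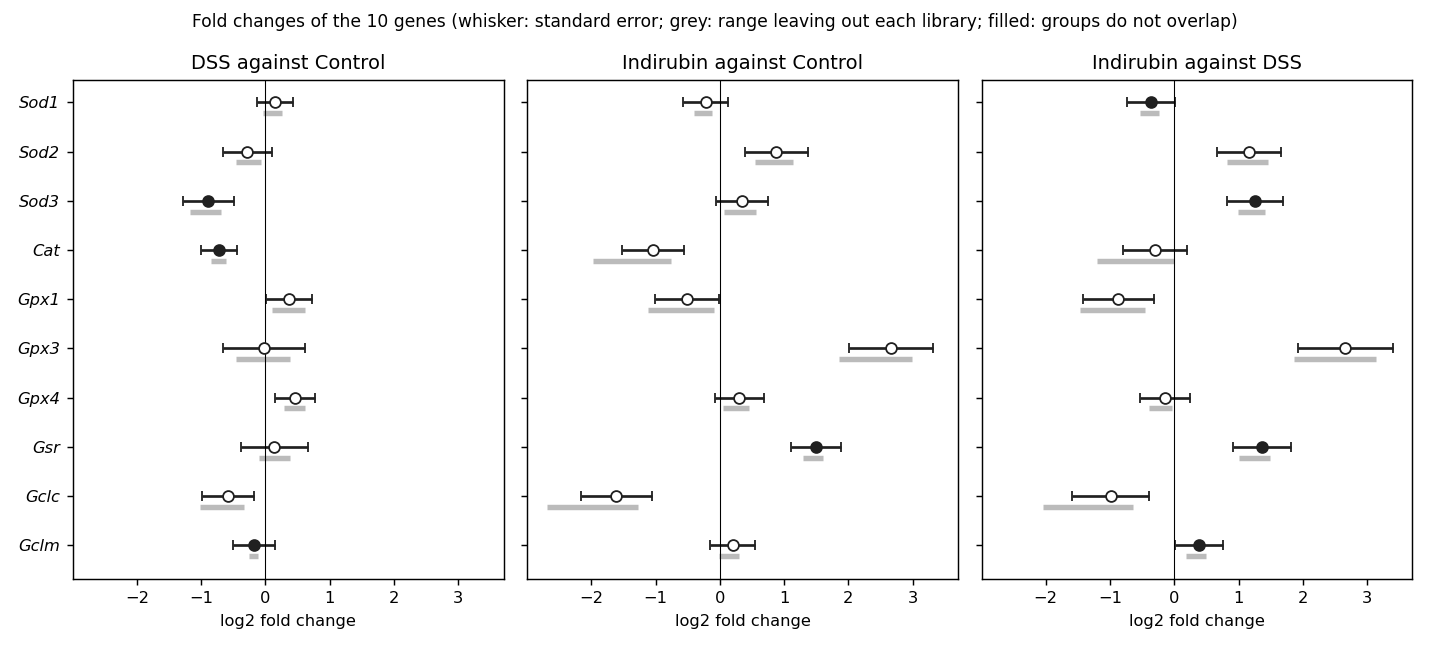
Log2 fold change (horizontal axis) of each of the 10 genes in the 3 comparisons, with whiskers for the standard error, grey bars for the range when each library is left out in turn, and filled points where the normalized CPM of the groups do not overlap. Gpx3 and Gsr lie to the right in both comparisons of the Indirubin mice (2.66 and 1.50 against Control), and the grey bars of Cat and Gclc against Control reach -1.97 and -2.69.

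Sod1, the copper-zinc enzyme of the cytosol and the gene mutated in a familial form of motor neuron disease, lies on chromosome 16 (90017642 to 90023217, plus strand, GRCm39; ENSMUSG00000022982). It was at 107, 122 and 80.9 normalized CPM in Control, 108, 96.1 and 131 in DSS and 93.3, 93.7 and 74.7 in Indirubin mice. The DSS values lay above all 3 Indirubin values, by a narrow gap between 96.1 and 93.7, and both overlapped Control. Sod1 differed by -0.36 ± 0.374 on the log2 scale (standard error, edgeR) between Indirubin and DSS mice, a difference no larger than its error. Sod1 stayed between 74.7 and 131 normalized CPM over the 9 libraries.

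Sod2 encodes the manganese enzyme of the mitochondrial matrix and is induced by inflammatory cytokines in many cells (chromosome 17, 13225733 to 13258950, plus strand; ENSMUSG00000006818). It was at 13.6, 16.2 and 22.9 normalized CPM in Control and at 16.4, 10.6 and 15.4 in DSS mice. In the Indirubin mice it was at 11.2, 38.6 and 44.8. Indirubin-2 and Indirubin-3 exceeded every other library, while Indirubin-1 lay among the lowest, so the groups overlapped. Against DSS mice Sod2 differed by 1.16 ± 0.501 on the log2 scale (unadjusted p = 0.0393, adjusted p = 0.628, edgeR), and it was 1.46 (adjusted p = 0.0987) without Indirubin-1. Against Control mice it was 0.88 ± 0.494 (adjusted p = 0.469), and 1.13 (adjusted p = 0.0727) without Indirubin-1. Without Indirubin-2 or Indirubin-3 it was 0.99 or 0.82 against DSS and 0.71 or 0.55 against Control mice.

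Sod3, the secreted enzyme that binds the extracellular matrix (chromosome 5, 52521133 to 52528760, plus strand; ENSMUSG00000072941), was lowest in DSS mice. Its level was 26.1, 18.5 and 14.9 normalized CPM in Control, 13.6, 9.39 and 7.86 in DSS, and 15.2, 33.3 and 25.5 in Indirubin mice. All 3 DSS values lay below all values of the other groups, with the nearest gap between 13.6 and 14.9, and Indirubin overlapped Control. The mean of DSS mice was 10.3 ± 2.99 against 19.8 ± 5.72 in Control and 24.7 ± 9.04 in Indirubin mice (SD, n = 3 each). The log2 fold change was -0.89 ± 0.396 for DSS against Control (unadjusted p = 0.0411, adjusted p = 0.631, edgeR) and 1.26 ± 0.435 for Indirubin against DSS mice (unadjusted p = 0.0131, adjusted p = 0.500). The order held relative to nuclear reads alone, but with library size alone neither separation remained. Sod2, Sod3 and Gpx3 also stand in a gene list that the study made from these libraries for Indirubin against DSS mice, so their direction there is not independent evidence. The summed level of 9 stellate cell and fibroblast markers, cells that make matrix, was 63.4 to 99.5 normalized CPM in DSS mice, against 111 to 178 in Control and 93.6 to 187 in Indirubin mice. All 9 were over 3 counts in at least 1 library and none was at 0 throughout, and their part in the Sod3 values was not tested. In bulk tissue, fewer cells of a type and less RNA per cell cannot be told apart.

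Cat, the peroxisomal enzyme that splits hydrogen peroxide into water and oxygen (chromosome 2, 103284194 to 103315505, minus strand; ENSMUSG00000027187), was lower in DSS than in Control mice. Its level was 247, 200 and 182 normalized CPM in Control and 118, 124 and 130 in DSS mice, so the lowest Control value lay well above the highest DSS value. The means were 210 ± 33.7 and 124 ± 6.33 (SD, n = 3 each). The log2 fold change was -0.72 ± 0.283 (unadjusted p = 0.0243, adjusted p = 0.514, edgeR), and it stayed between -0.85 and -0.61 when each library was left out in turn. In the Indirubin mice Cat was at 187, 60.8 and 55.1. Indirubin-1 lay inside the Control range, and Indirubin-2 and Indirubin-3 lay below every other library. The log2 fold change against Control mice was -1.04 ± 0.487 (adjusted p = 0.371) with all libraries. Without Indirubin-1 it was -1.97 ± 0.298 and passed the threshold (adjusted p = 0.00271). Without Indirubin-2 or Indirubin-3 it was -0.79 or -0.76 and did not pass (adjusted p = 0.711 and 0.714, edgeR). Against DSS mice the difference was -0.30 ± 0.497 (adjusted p = 0.977) with all libraries and -1.20 (adjusted p = 0.167) without Indirubin-1. Without Indirubin-2 or Indirubin-3 the difference was -0.04 or -0.00. With library size alone Cat was not separated between DSS and Control mice. Its log2 fold change was then -0.05, where the median of all genes was 0.70.

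Gpx1, the selenoenzyme of cytosol and mitochondria that removes hydrogen peroxide and small hydroperoxides (chromosome 9, 108216102 to 108217542, plus strand; ENSMUSG00000063856), overlapped between all groups. It was at 22.8, 29.4 and 34.3 normalized CPM in Control, 37.8, 21.3 and 50.0 in DSS, and 19.8, 33.1 and 6.74 in Indirubin mice. The highest value was DSS-3 and the lowest Indirubin-3. Indirubin and DSS mice differed by -0.87 ± 0.546 on the log2 scale (adjusted p = 0.823, edgeR), and it ranged from -1.47 to -0.45 when single libraries were left out.

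Gpx3, the peroxidase secreted into plasma, made chiefly by the kidney (chromosome 11, 54793279 to 54801203, plus strand; ENSMUSG00000018339), had the largest ratio of highest to lowest normalized CPM of the 10 genes, at 36.2. It had 23, 37 and 19 counts in Control, 14, 32 and 86 in DSS, and 35, 367 and 695 in Indirubin mice. On the normalized scale this was 4.47, 6.52 and 4.63 CPM, then 1.66, 5.67 and 7.86, then 6.43, 30.1 and 60.0. Indirubin-2 and Indirubin-3 exceeded every other library, and Indirubin-1 lay inside the range of the DSS mice and just below the highest Control value. Gpx3 differed by 2.66 ± 0.652 on the log2 scale against Control (unadjusted p = 0.00150, adjusted p = 0.105, edgeR) and 2.66 ± 0.740 against DSS mice (unadjusted p = 0.00352, adjusted p = 0.433). Without Indirubin-1 it was 2.99 (adjusted p = 0.00119) and 3.04 (adjusted p = 0.0247). Without Indirubin-3 it was 1.86 in both comparisons (adjusted p = 0.377 and 0.954). Between DSS and Control mice it was -0.02 ± 0.639. Kidney markers were near 0: of 6 proximal tubule markers, Slc34a1, Kap, Umod and Slc22a6 were at 0 in all 9 libraries, and the summed level was 0.328 normalized CPM in Indirubin-2 and 0.00 in Indirubin-3, with 4.04 in Indirubin-1.

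Gpx4, which reduces phospholipid hydroperoxides and protects cells from ferroptosis (chromosome 10, 79883000 to 79892273, plus strand; ENSMUSG00000075706), was at 20.2, 31.5 and 24.1 normalized CPM in Control, 28.3, 34.9 and 38.3 in DSS, and 20.7, 40.1 and 30.5 in Indirubin mice. All groups overlapped, and the largest difference was 0.46 ± 0.317 on the log2 scale for DSS against Control mice (adjusted p = 0.902, edgeR). Reads of Gpx4 are uncertain to the extent that they are shared with its processed pseudogene Gpx4-ps2, which had 18 to 54 counts per library. Of the other glutathione peroxidase genes, Gpx2, Gpx5, Gpx6, Gpx7 and Gpx8, 0 of 5 passed the filter, and Gpx2 was at 0 counts in all 9 libraries. Gpx7 reached 22 counts and Gpx8 12 counts at most.

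Gsr, the flavoenzyme that returns oxidized glutathione to its reduced form (chromosome 8, 34142551 to 34188191, plus strand; ENSMUSG00000031584), was the one gene of the 10 in which all 3 Indirubin mice stood above all 6 others in normalized CPM. Relative to nuclear reads alone Gpx3 did so as well. Gsr had 38, 30 and 25 counts in Control, 72, 21 and 86 in DSS, and 82, 186 and 254 in Indirubin mice. The normalized levels were 7.39, 5.28 and 6.09 CPM, then 8.53, 3.72 and 7.86, then 15.1, 15.2 and 21.9. Unlike Sod2, Cat, Gpx3 and Gclc, Indirubin-1 stood with the other libraries of its group, and the separation held with library size alone and with nuclear reads alone. The means were 17.4 ± 3.93 in Indirubin, 6.26 ± 1.06 in Control and 6.71 ± 2.61 in DSS mice (SD, n = 3 each). Gsr differed by 1.50 ± 0.392 on the log2 scale against Control (unadjusted p = 0.00238, adjusted p = 0.122, edgeR) and 1.37 ± 0.451 against DSS mice (unadjusted p = 0.0103, adjusted p = 0.478). It stayed between 1.30 and 1.61 and between 1.01 and 1.49 when each library was left out in turn. The summed level of 9 neutrophil markers was also highest in Indirubin mice, at 27.9, 250 and 90.7 normalized CPM, with 11.5 to 19.8 in DSS and 1.17 to 3.65 in Control mice. Of these markers 8 were over 3 counts in at least 1 library, Cxcr2 was at 0 in all 9, and their part in the Gsr values was not tested.

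Of the subunits of glutamate-cysteine ligase, Gclc ranged over a wider span than Gclm. Gclc encodes the catalytic subunit (chromosome 9, 77661817 to 77701767, plus strand; ENSMUSG00000032350), and was at 33.3, 36.6 and 18.5 normalized CPM in Control, 28.3, 10.5 and 18.2 in DSS, and 19.3, 5.33 and 4.49 in Indirubin mice. Indirubin-2 and Indirubin-3 were below every other library, and Indirubin-1 lay inside both other groups. The log2 fold change against Control mice was -1.61 ± 0.549 (unadjusted p = 0.0124, adjusted p = 0.210, edgeR). Without Indirubin-1 it was -2.69 ± 0.418 and passed the threshold (adjusted p = 0.00310). Without Indirubin-2 or Indirubin-3 it was -1.32 or -1.28 and did not pass (adjusted p = 0.520 and 0.501). Against DSS mice it was -0.99 ± 0.595 (adjusted p = 0.800), and -2.05 (adjusted p = 0.0974) without Indirubin-1. Without Indirubin-2 or Indirubin-3 it was -0.69 or -0.64. Between DSS and Control mice it was -0.58 ± 0.406 (adjusted p = 0.906).

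Gclm encodes the modifier subunit, which lowers the ligase's need for glutamate and its feedback by glutathione (chromosome 3, 122039206 to 122064381, plus strand; ENSMUSG00000028124). It was at 21.4, 21.8 and 24.6 normalized CPM in Control, 19.1, 20.6 and 18.8 in DSS, and 22.2, 32.4 and 21.9 in Indirubin mice. The DSS values lay below those of both other groups, by 20.6 against 21.4 and 21.9 at the nearest, and neither difference passed the threshold: -0.18 ± 0.323 on the log2 scale for DSS against Control (adjusted p = 1.00) and 0.39 ± 0.374 for Indirubin against DSS mice (adjusted p = 0.935, edgeR). With library size alone the DSS values lay above Control, so no direction is given for Gclm.

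**Figure D3:**
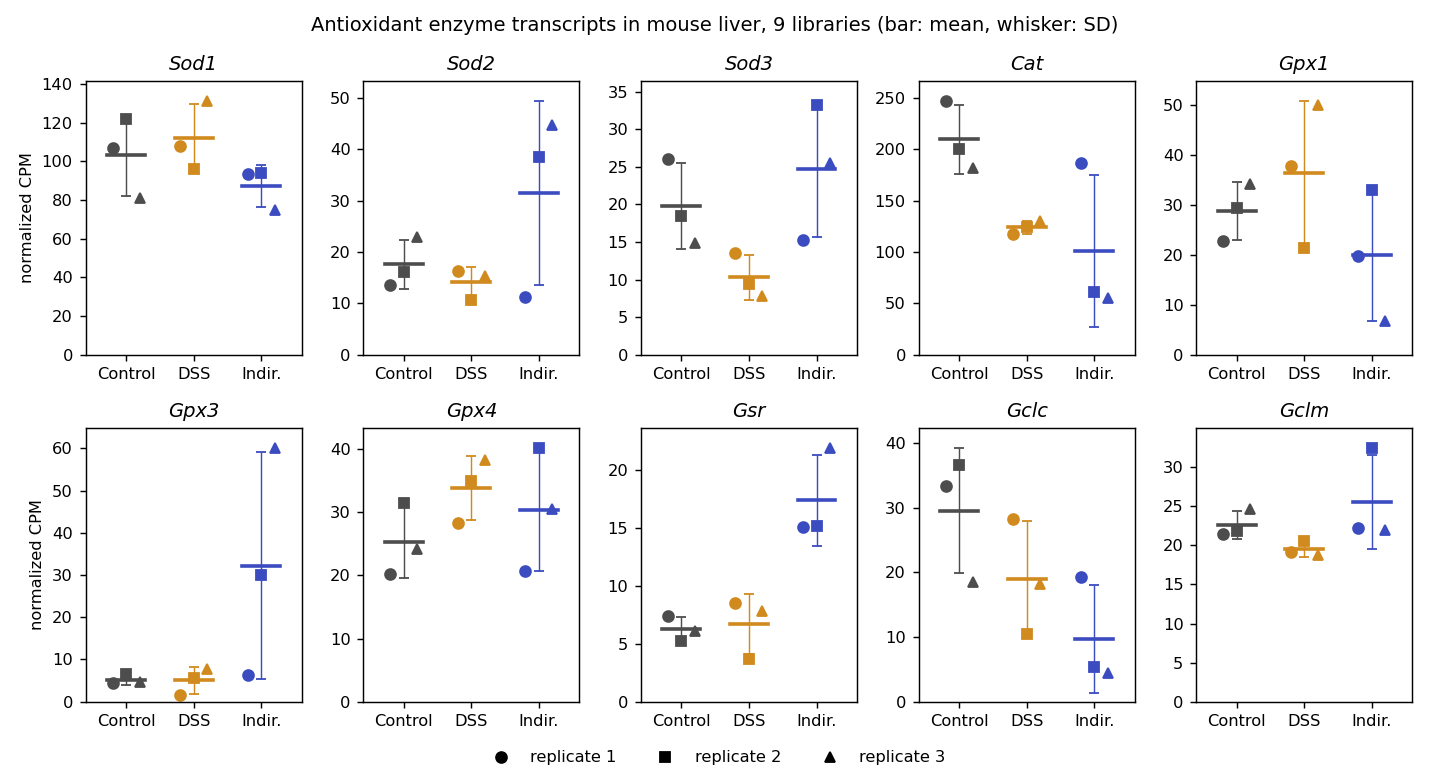
Normalized CPM (vertical axes, each from 0) of the 10 genes in the Control, DSS and Indirubin libraries, with 1 symbol per replicate number, the mean as a bar and the SD as a whisker. Indirubin-1 (circle) lies near the Control and DSS libraries for Sod2, Cat, Gpx3 and Gclc, where the other Indirubin libraries lie away from them, and all 3 Indirubin values of Gsr (15.1 to 21.9) lie above the rest.

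Ratios of genes within a library do not depend on how libraries are scaled, and were chosen after the values were seen, so they are given with no test. There were 1.55, 1.68 and 0.752 Gclc counts per Gclm count in Control, 1.48, 0.509 and 0.966 in DSS, and 0.868, 0.164 and 0.206 in Indirubin mice. The catalytic subunit thus had fewer counts than the modifier in all 3 Indirubin mice, though Indirubin-1 overlapped both other groups. Cat gave 2.30, 1.64 and 2.25 counts per Sod1 count in Control, 1.09, 1.30 and 0.994 in DSS, and 2.00, 0.649 and 0.738 in Indirubin mice. The 3 DSS mice lay below the 3 Control mice in this ratio, and the Indirubin mice lay on both sides of the DSS mice.

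Shares per kilobase rest on the deposited gene lengths. Among the 3 dismutases, Sod1 supplied most of the counts per kilobase in every library, from 62.5 to 90.1%. The share of Sod3 was 19.7, 13.3 and 14.9% in Control, 11.2, 9.05 and 5.73% in DSS, and 14.2, 24.5 and 22.7% in Indirubin mice, so DSS mice were below both other groups. The share of Sod2 was 3.85, 4.34 and 8.59% in Control, 5.02, 3.83 and 4.21% in DSS and 3.90, 10.6 and 14.9% in Indirubin mice, with overlap. Among the 3 peroxidases, the share of Gpx3 was 8.23, 8.50 and 6.32% in Control, 2.10, 8.20 and 7.08% in DSS, and 12.1, 26.4 and 59.7% in Indirubin mice. All 3 Indirubin mice, Indirubin-1 included, were above the 6 others in this share. In Indirubin-3, Gpx1 was the smallest part of the 3, at 8.43%, where it was 36.6 to 60.2% in the other 8 libraries.

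**Figure D4:**
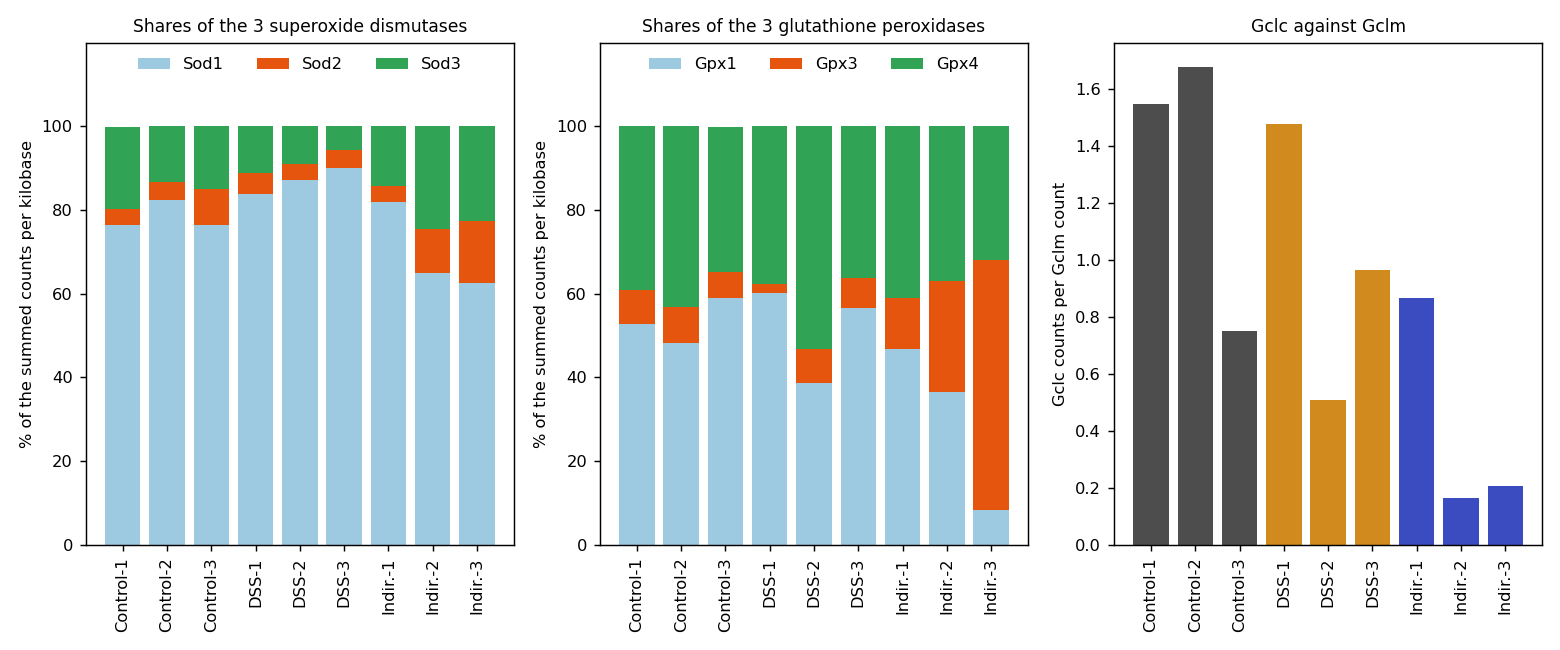
Left and middle, the share (%) of each gene in the counts per kilobase summed over the 3 superoxide dismutases and over the 3 glutathione peroxidases, by library. Right, Gclc counts per Gclm count by library, coloured by group. Gpx3 takes 59.7% of the peroxidase counts in Indirubin-3, and the Gclc ratio is lowest in Indirubin-2, at 0.164.

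The genes around these enzymes were counted from 8 lists. No gene of them passed an adjusted p of 0.05 in any comparison (edgeR), and the counts that follow are at an unadjusted p under 0.05, which 7.52% of all genes tested had in DSS against Control, 13.8% in Indirubin against Control and 7.68% in Indirubin against DSS mice. Of 5 genes of metal and cofactor supply to the dismutases (Ccs, Atox1, Slc31a1, Slc39a14 and Slc25a37), all tested, 1 was higher in Indirubin mice, against Control and against DSS mice alike. This was Slc39a14, a zinc, iron and manganese importer, with 32, 224 and 261 counts in Indirubin against 26, 45 and 5 in Control mice (log2 fold change 1.75 ± 0.632) and 60, 27 and 82 in DSS mice (1.27 ± 0.521), where the groups overlapped. Without Indirubin-1 these were 1.98 and 1.55. Of 20 genes of glutathione synthesis, export and breakdown, 11 to 13 were tested and 1 was lower, against DSS mice: Cbs, the enzyme that opens the route from homocysteine to cysteine, at 19.3 ± 5.19 normalized CPM in Indirubin and 40.3 ± 9.46 in DSS mice (log2 fold change -1.06 ± 0.397). In DSS against Control mice no gene of the 8 lists did so.

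Of 9 genes of NADPH supply, 8 were tested. G6pdx, the entry enzyme of the pentose phosphate route, was at 6.54 ± 2.44 normalized CPM in Indirubin, 2.28 ± 1.44 in Control and 2.53 ± 0.191 in DSS mice, with no overlap (log2 fold change 1.54 ± 0.648 and 1.36 ± 0.601). Without Indirubin-1 these were 1.07 and 0.91, with an unadjusted p of 0.198 and 0.254 (edgeR). Taldo1, of the same route, was higher against Control mice (0.96 ± 0.386). Idh1, the cytosolic isocitrate dehydrogenase that also makes NADPH, was lower, at 14.2 ± 3.36 against 28.4 ± 4.37 in Control and 30.7 ± 11.1 in DSS mice (-0.98 ± 0.363 and -1.12 ± 0.413). Of the 8 tested, 2 were higher and 1 lower against Control mice, beside 13.8% of all genes called, and 1 each way against DSS mice, beside 7.68%. The median of the list was -0.33 and 0.24, beside 0.13 and 0.15 over all genes tested.

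Of 20 genes of the NRF2 system, the regulator that answers electrophiles and oxidants, 17 were tested against Control mice, with 2 higher and 2 lower, beside 13.8% of all genes called, and 18 against DSS mice, with 2 higher, beside 7.68%, a share near that of all genes. Hmox1, heme oxygenase, had 72, 414 and 398 counts in Indirubin, 69, 82 and 50 in Control and 63, 39 and 101 in DSS mice. Its log2 fold change was 1.06 ± 0.424 against Control, with overlap, and 1.79 ± 0.456 against DSS mice, without overlap (unadjusted p = 0.00198, adjusted p = 0.433, edgeR). Maff, a small MAF partner, had 11, 34 and 21 counts in Indirubin, 0, 4 and 0 in Control and none in DSS mice, which is at least 5.70-fold higher than a floor of 3 counts per DSS library. Ephx1, microsomal epoxide hydrolase (-1.40 ± 0.469), and Osgin1 (-1.42 ± 0.637) were lower than in Control mice. Without Indirubin-1, Hmox1 passed the adjusted threshold against Control (1.24, adjusted p = 0.0473) and DSS mice (2.01, adjusted p = 0.0232), and so did Ephx1 (-2.23, adjusted p = 0.00436) and Osgin1 (-2.87, adjusted p = 0.00286) against Control mice (edgeR). Without Indirubin-2 or Indirubin-3 none of these passed it (adjusted p = 0.488 to 0.918). Against Control mice Hmox1 was then 0.87 or 0.86, Ephx1 -1.10 or -1.21 and Osgin1 -1.13 or -0.96. Gclc and Gclm, described above, are themselves usual NRF2 targets.

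Of 11 genes of selenocysteine insertion and selenium supply, 6 to 8 were tested and 0 had an unadjusted p under 0.05 in any comparison, with a median log2 fold change of 0.22 in Indirubin against Control and 0.06 against DSS mice. Of 11 producers of hydrogen peroxide, most of them peroxisomal, 7 or 8 were tested, and 1 was higher against DSS mice: Xdh, xanthine dehydrogenase (1.31 ± 0.542, and 1.57 without Indirubin-1), with overlap. Without Indirubin-2 or Indirubin-3 Xdh differed by 1.16 or 1.00, with an unadjusted p of 0.0964 and 0.125 (edgeR). Of 7 genes of the phagocyte oxidase and myeloperoxidase, 5 were tested against Control mice and 3 were higher in Indirubin mice, where 13.8% of all genes were called either way. The neutrophil markers given beside Gsr moved with them (27.9, 250 and 90.7 normalized CPM in Indirubin against 1.17 to 3.65 in Control mice), and their part in these values was not tested. Of the 3, Cyba, a subunit of the enzyme that makes superoxide in phagocytes, was at 6.79 ± 3.52 normalized CPM against 1.43 ± 1.41 (log2 fold change 2.28 ± 0.914), without overlap. Against DSS mice 0 of the 6 tested had an unadjusted p under 0.05.

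Other marker lists moved with some of these values, and their part in them was not tested. Macrophage markers (11, all over 3 counts somewhere) summed to 215 to 294 normalized CPM in Indirubin, 169 to 194 in DSS and 129 to 220 in Control mice. Erythroid markers (5, red cells being rich in Cat and Gpx1) summed to 167, 667 and 645 in Indirubin mice, against 147 to 256 in DSS and 110 to 267 in Control mice. Monocyte markers (5) reached 16.9, 56.5 and 40.8, against 12.9 to 13.4 and 11.8 to 21.7. Adipocyte markers (5 of 6 over 3 counts, Adipoq at 0 throughout) reached 11.4, 43.3 and 51.2, against 3.01 to 14.5 and 6.23 to 10.2. Nearly all of this was Fabp4, with 47, 523 and 565 counts in Indirubin mice. No other adipocyte marker exceeded 17 counts there, so the sum does not speak for the list. In these last 3 lists Indirubin-2 and Indirubin-3 were the high libraries, as for Sod2 and Gpx3. All 10 acinar genes were over 3 counts in at least 1 library and none was at 0 throughout.

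The lists that follow did not set Indirubin-2 and Indirubin-3 above all other libraries. Pericentral hepatocyte markers (7) summed to 328 to 468 normalized CPM in Control and 357 to 751 in DSS mice. They were at 524, 361 and 227 in Indirubin mice, with Indirubin-1 the highest of its group, as for Cat and Gclc. Periportal markers (7) summed to 437 to 622, 309 to 539 and 324 to 442, but their members went opposite ways in Indirubin mice. Cyp2f2 had 300, 101 and 96 counts there, while Pck1 had 372, 2597 and 1948. Their part in the Cat and Gclc values was not tested. Endothelial markers (8) summed to 45.5 to 80.0, 28.7 to 43.5 and 49.9 to 74.5, with DSS lowest in the sum but not in every member. Kdr had 0, 0 and 29 counts in DSS against 37, 47 and 4 in Control mice. Emcn went the other way, with 12, 25 and 19 against 0, 4 and 5. Cholangiocyte markers (5) summed to 3.70 to 5.60, 8.59 to 13.3 and 4.77 to 8.28. Lymphocyte markers (5 of 6 over 3 counts) summed to 5.60 to 7.78 in Control, 13.2 to 13.8 in DSS and 13.8, 3.28 and 7.52 in Indirubin mice, again with Indirubin-1 highest of its group. Intestinal markers (2 of 7 over 3 counts, with Lct, Muc2 and Cdx1 at 0 throughout) stayed between 0.974 and 10.9 in all libraries.

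For each gene, the 3 genes most like it were taken by Pearson's r of log2 normalized CPM over the 9 libraries, among the 9712 other genes of the table that passed the filter over all libraries. The points share the libraries, their depth and the split of the Indirubin mice, so r is a description. Cat was most like Cyp2f2 (0.99), a periportal marker, and Ces3b and Sult2a8 (0.98 each), all of them liver enzymes. Gclc was most like Scp2-ps2 (0.98), Sema4g and Etnppl (0.97 each). Sod2 was most like Fbxo31 (0.98), Cel and C1qa (0.95 each), where Cel is on the acinar and C1qa on the macrophage list. Gpx3 was most like Epb41 (0.96), Map1lc3b (0.94) and Serinc3 (0.92).

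Among the genes most like Sod1 were Slc31a1 (0.96), the copper importer, and Prxl2b (0.95). Gpx4 was most like Pop5, Rab23 and Rpl28 (0.95 each), and Gpx1 like Tada2b, Atp5pb and Psmb6 (0.90 each). Gsr was most like Rnf2 and Gm29856 (0.96 each) and Srsf5 (0.95), Sod3 like Zfp36l1 (0.92), Ctnna1 and Daxx (0.91 each), and Gclm like Ncl, Ahcy and Tent5a (0.89 each). No gene of the 10 was among the 3 most like another.

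The 250 bases before the start site were searched on both strands for TGACNNNGC, the core of the antioxidant response element that NRF2 binds, and for GCGTG, the core of the element that the aryl hydrocarbon receptor binds. The table of RefSeq promoters used here (GRCm38.p6) gave 10 windows for 7 of the 10 genes, and Sod3, Gsr and Gclc were not searched. TGACNNNGC was in the windows of Gclm (first base at -134) and Sod1 (at -56, overlapping a GCGTG there), where 10.2% of 32851 RefSeq windows of this length hold it. GCGTG was in windows of Sod1, Sod2, Gpx1, Gpx4 and Gclm, where 28.2% of all windows hold it, and not in those of Cat and Gpx3. A match is a run of letters and not a binding site. The Gclm window is printed because it holds both motifs without overlap, chr3:122245307-122245556, plus strand, with matches to either motif on either strand in capitals.
Gclm: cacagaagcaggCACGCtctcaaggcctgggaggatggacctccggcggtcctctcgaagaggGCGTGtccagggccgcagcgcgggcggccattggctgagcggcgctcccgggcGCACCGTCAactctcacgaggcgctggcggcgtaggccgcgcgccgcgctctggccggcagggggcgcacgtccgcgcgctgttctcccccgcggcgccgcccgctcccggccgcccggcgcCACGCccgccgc
It holds 1 TGACNNNGC, read on the minus strand, and 3 GCGTG.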

How the data were processed

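Liver RNA of 9 samples was sequenced by the authors on a DNBSEQ instrument after extraction with the RNeasy Plus Micro Kit. The authors aligned the reads to the mouse genome (GRCm39 per the submitters' processing notes) and deposited unnormalized read counts per gene, and the aligner and counting program are not given in the sources used here. The FPKM values deposited by the authors beside the counts were used only to check them. Their own fold changes and p-values, and 3 gene lists without values per mouse, were not used.

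The deposited counts went into edgeR 4.0.16 under R 4.3.3 (TMM, filterByExpr at its defaults of 10 and 15 counts, glmQLFit and glmQLFTest, Benjamini-Hochberg over all genes tested), on the 6 libraries of each comparison, with a call at an adjusted p under 0.05. The standard error is the log2 fold change divided by the square root of F. Levels are CPM with TMM over 9 libraries. No 2 libraries of a group were duplicates, and separate mice are not stated beyond the sample labels, so p-values measure the spread between these samples. Named are all 10 members, up to 2 genes each way per pathway list and comparison at the smallest unadjusted p under 0.05, and the 3 most like genes of each member (Pearson's r, log2 CPM, prior count 2). The 10 genes, the 8 pathway lists and the 15 marker lists were chosen with earlier results of these data known. Alternatives were DESeq2 1.42.0 (size factors or Wald test), library size alone, no filter, at least 10 counts in every library, all 9 libraries in one fit, no mitochondrial genes, a replicate block and each library left out. Non-overlap under other scalings and the ratios within a library were added after seeing the data. Scripts were tested on simulated data. Figures were drawn with matplotlib 3.10.9. Enzyme activities and patient data were not analysed here, and some genes that the naming rule selects are not reported here.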

Additional observations from a re-analysis of the deposited data

How the results depend on the processing

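Of 420 log2 fold changes of the 10 genes under alternatives, 396 kept their direction and side of the threshold, 12 newly passed it and 12 changed sign. With library size alone the median of all genes was 0.70 in DSS against Control, 1.10 in Indirubin against Control and 0.43 in Indirubin against DSS mice, from 0.01, 0.13 and 0.15. The sign then changed for Sod2 (0.46), Gpx3 (0.72), Gclc (0.09) and Gclm (0.49) in the first comparison, for Sod1 (0.75) and Gpx1 (0.56) in the second and for Gpx4 (0.24) in the third, all of them near or below that shift. Unadjusted calls of all genes then split into 845 higher and 71 lower, 2115 and 107, and 407 and 103, from 260 and 303, 600 and 514, and 406 and 294. Those of the 10 genes split into 2 and 0, 6 and 0, and 4 and 0, from 0 and 2, 2 and 1, and 4 and 0.

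Leaving out libraries changed the sign of small values in DSS against Control mice: Sod1 ranged from -0.03 (without Control-3) to 0.26, Gpx3 from -0.45 to 0.39 (without DSS-1; 0.15 without Control-2) and Gsr from -0.10 (without DSS-1) to 0.39. In Indirubin against Control mice Gclm ranged from -0.02 (without Indirubin-2) to 0.30. In DSS against Control mice the 10 genes gave unadjusted calls (p under 0.05) numbering 0 (without Control-1 or DSS-2) to 3 (without DSS-1), and 1 with no filter, with 9 libraries in one fit and with the replicate block. In Indirubin against Control mice the number was 6 with library size alone and ranged from 2 to 5 (without Indirubin-1), from 3. In Indirubin against DSS mice it ranged from 1 (without DSS-2; 2 without DSS-3) to 6 (without Indirubin-1), from 4.

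At an adjusted p under 0.05, Indirubin against Control mice called 2 of the 10 with library size alone and by DESeq2's Wald test, 1 with no filter and with at least 10 counts in every library (Gpx3), and 0 to 3 without single libraries, 3 being Cat, Gpx3 and Gclc without Indirubin-1. Indirubin against DSS mice called 1, Gpx3, by the Wald test, with no filter and without Indirubin-1. The cause was not tested. Non-overlap in Indirubin against Control mice held for 3 genes with library size alone (32.1% of all genes) and 2 with nuclear reads (21.8%), and in Indirubin against DSS mice for 1 with library size alone (12.4%).

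Over all genes, the adjusted calls in DSS against Control, Indirubin against Control and Indirubin against DSS mice were 19, 266 and 2 with library size alone, 143, 316 and 80 by the Wald test, 125, 379 and 156 with no filter, 84, 72 and 2 with at least 10 counts in every library, then 11, 56 and 4 with 9 libraries in one fit, from 53, 19 and 0. They ranged from 12 (without Control-2) to 64 (without DSS-1), from 1 to 465 and up to 134 without single libraries. The highest of the last 2 ranges came without Indirubin-1. With the replicate block they were 30, 49 and 3. Replicate numbers did not pair the samples, since the correlations of same-numbered deviations were -0.0248 to 0.0243, and the block called none of the 10 genes. The lowest counts of the 10 genes in Control or DSS libraries were those of Gpx3 and Gsr, which had 14 to 86 per library. How far depth limits each gene was not tested.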
